A study of Homo sapiens with 6 samples.

Results

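The clustered protocadherins are 51 protein-coding genes on chromosome 5q31: 13 of the alpha, 16 of the beta and 22 of the gamma cluster. They were chosen by symbol from the 58825 gene identifiers of a deposited count table, and the family was picked from the readout, with fold changes of the comparison below already known. The values that follow therefore describe these genes and are no independent evidence that the family differs. RNA was measured in FaDu, an established line of hypopharyngeal squamous carcinoma cells. The 3 libraries labelled shNSUN2 carry a short hairpin RNA against NSUN2, an RNA cytosine-5 methyltransferase, and the 3 libraries labelled FaDu have no hairpin named. A non-targeting hairpin was not analysed here, so loss of NSUN2 and delivery of a hairpin cannot be told apart. Nothing in the labels says that the replicates came from separate cultures, so p-values measure the spread between these libraries, which may be technical.

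Clustered protocadherins are cadherin-like proteins of the cell surface, best known in neurons, where each cell expresses a small choice of them and membranes recognise each other by matching sets. In the alpha and gamma clusters each gene has its own large first exon with its own promoter, and its RNA is spliced to a set of exons at the 3′ end of the cluster that every gene there uses. The beta genes have no such exons. CTCF and cohesin bring promoters and enhancers of the clusters together, and DNA methylation and histone marks of silent chromatin keep unchosen promoters off.

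By the GENCODE 29 annotation of the human genome (build GRCh38), all 51 genes lie on the plus strand of chromosome 5. The alpha genes span chr5:140786136-141012347, the beta genes chr5:141051135-141249365 and the gamma genes chr5:141330571-141512981. The first exon shared by all 13 alpha genes is chr5:140978949-140979007, and the one shared by all 22 gamma genes is chr5:141494807-141494865. The splice junctions of 4 genes are shown 5′ to 3′ because they mark where a gene's own sequence ends. Capitals mark the shared exon, and the 24 lower-case bases are the end of the gene's own exon.
PCDHGB7: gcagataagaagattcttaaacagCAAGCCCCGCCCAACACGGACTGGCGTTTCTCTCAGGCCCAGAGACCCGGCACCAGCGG
PCDHGC3: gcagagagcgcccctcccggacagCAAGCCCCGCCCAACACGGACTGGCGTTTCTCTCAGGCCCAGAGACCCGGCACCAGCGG
PCDHA4: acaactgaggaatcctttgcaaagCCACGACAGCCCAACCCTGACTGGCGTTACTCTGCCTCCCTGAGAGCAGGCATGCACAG
PCDHA10: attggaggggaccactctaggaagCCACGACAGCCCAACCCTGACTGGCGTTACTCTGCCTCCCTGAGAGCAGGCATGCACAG
The own exons end at chr5:141420251-141420274 for PCDHGB7, chr5:141478523-141478546 for PCDHGC3, chr5:140809549-140809572 for PCDHA4 and chr5:140858413-140858436 for PCDHA10. Over the 59 bases in capitals all 22 gamma junctions carry the same letters, and so do all 13 alpha junctions, while the alpha and gamma exons match at 39 of the 59 bases.

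Bases shared with any other gene of the cluster made up 19.2% to 56.6% of a gene's exonic bases in the alpha cluster and 27.6% to 64.4% in the gamma cluster, with medians of 46.7% and 43.9%. The tops of both ranges include bases shared with only some genes of the cluster. PCDHA2 had 3428 shared bases and PCDHGB4 had 4447, against medians of 2866 and 2181. A fragment from shared bases alone does not tell which of the sharing genes it came from, and how the deposited counts divide such fragments is not given in the sources used here. Beta genes shared no exon, but 0% to 45.7% of the 50-base words of their longest transcripts recurred in another member, with a median of 13.7%. The split of reads between members is uncertain for this reason in all 3 clusters, so sums over a cluster stand beside the single genes below.

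**Figure D1:**
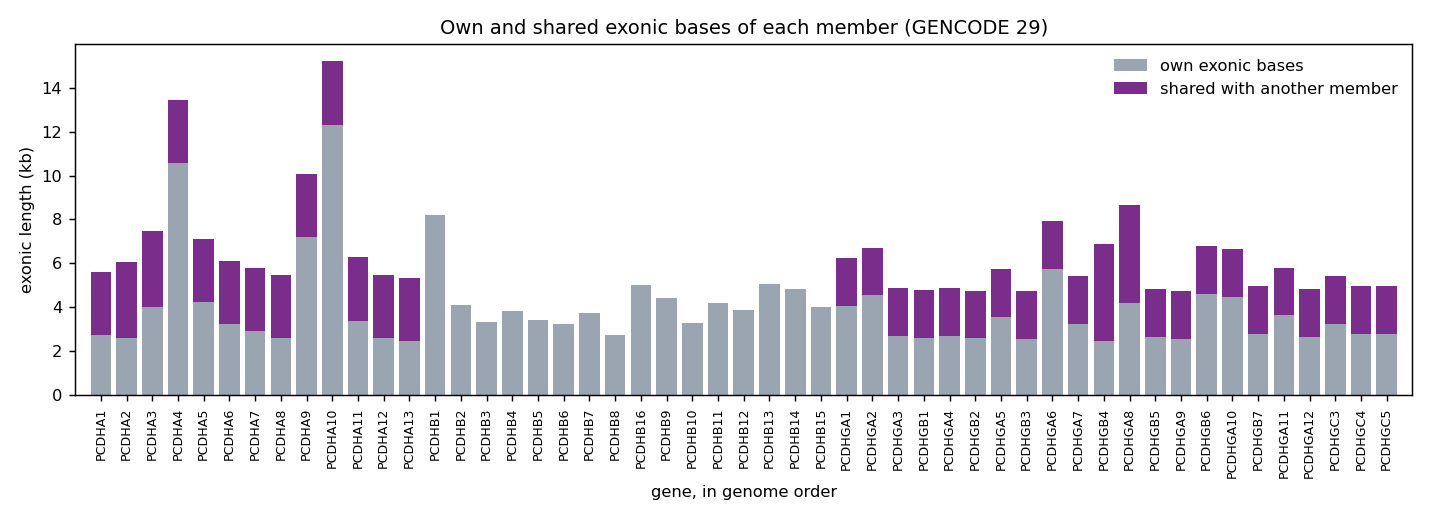
Exonic length in kilobases of each member in genome order, divided into its own bases (grey) and bases shared with another member (purple), by GENCODE 29. Sharing is seen in every alpha and gamma gene and in no beta gene.

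The promoters carry a short sequence element whose letters differ by cluster. RefSeq promoter windows (build GRCh38.p14, 250 bases before to 50 after a gene's start) were matched for 45 of the 51 genes. For each cluster the word of 8 bases found in the most genes was picked on the plus strand. Where words tied, the one rarest over all windows was taken. Counted on either strand, it was ATGTCGCT in 9 of 11 alpha genes, GTGGCGCT in 13 of 14 beta genes and GCCGCTGT in 11 of 20 gamma genes. These words were in 0.234%, 1.15% and 1.64% of all 35116 windows, and none of the words was in a window of the other clusters. They overlap in the letters CGCT, which were in 70.0% of all windows. The stretch is shown for some of the genes whose values follow, all on the plus strand. Capitals mark the word or, where it is lacking, the match with the fewest differences.
PCDHGB7: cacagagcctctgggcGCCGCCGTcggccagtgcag
PCDHGA11: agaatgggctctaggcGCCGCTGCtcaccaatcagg
PCDHGC3: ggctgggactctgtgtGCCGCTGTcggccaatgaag
PCDHA4: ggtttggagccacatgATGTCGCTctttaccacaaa
PCDHA10: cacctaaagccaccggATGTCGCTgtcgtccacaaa
PCDHB2: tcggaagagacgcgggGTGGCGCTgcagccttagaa
They lie at chr5:141417581-141417616 (PCDHGB7), chr5:141420970-141421005 (PCDHGA11), chr5:141475878-141475913 (PCDHGC3), chr5:140806975-140807010 (PCDHA4), chr5:140855837-140855872 (PCDHA10) and chr5:141094540-141094575 (PCDHB2). PCDHGB7 and PCDHGA11 each differ from the gamma word at 1 of 8 bases, and they are among the 9 gamma genes with no window that holds the exact word. PCDHGB2 and PCDHA11, which are not shown and were not called, also differ from the word of their cluster at 1 of 8 bases. PCDHA12, also not shown, holds the alpha word. A match describes letters in a window and is no evidence of a bound factor.

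Library totals were 53612358 to 72788971 counts. Log2 expression correlated at Pearson's r of 0.964 to 0.974 across genes within a group and 0.935 to 0.953 between groups, and genes are not independent replicates. Within the shNSUN2 group, replicate 3 differed from replicate 1 with GC content (Spearman's rho across genes 0.421) and with exonic length (rho -0.253). Levels are given in CPM, counts scaled to a common library size. NSUN2 itself had CPM of 169, 173 and 156 in FaDu 1 to 3 and 50.4, 34.7 and 39.6 in shNSUN2 1 to 3, which left 25.1% of the mean FaDu level (log2 fold change -2.0, SE 0.16, edgeR adjusted p = 0.000526). In an exact two-sided permutation test of CPM, p was 0.1, the smallest that 3 against 3 libraries allow. Summed CPM of the squamous epithelial markers was 5849 to 5934 in FaDu and 3676 to 4162 in shNSUN2 libraries, with 8 of 12 markers lower and 1 higher. Summed CPM of the prostate epithelium markers was 31.7 to 32.3 against 60.5 to 74.9, with 5 of 10 higher and 1 lower, and KLK4 and MSMB were at 0 in every FaDu library. Neuronal markers summed to 46.4 to 78.3 against 31.4 to 32.5 CPM, with 2 of 7 tested markers lower (13 listed). Leukocyte markers summed to 31.7 to 52.1 against 41.5 to 50.8 CPM, with 3 of 5 tested markers higher (12 listed), fibroblast markers to 9.04 to 9.63 against 6.56 to 11.9 CPM (1 of 5 higher), and smooth muscle markers to 11.1 to 14.0 against 7.33 to 23.1 CPM (3 of 6 higher, 1 lower). The part of such cells in the protocadherin values was not tested, and in bulk RNA fewer cells of a type and less RNA per cell cannot be told apart.

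Most of the family was near silent in these cells. Only 8 of the 51 genes reached a mean of 1 CPM in either group: PCDHA4, PCDHA11, PCDHA12, PCDHB2, PCDHGB2, PCDHGB7, PCDHGA11 and PCDHGC3. The remaining 43 stayed under that level, and PCDHGB5 was at 0 in every library. A count of 4 was 3.25 to 3.81 times as frequent in these libraries as the mean frequency of 3 and 5, so the lowest values carry coarser steps than single counts. Of the 306 member values, 84 were 0, 45 were exactly 4 and 27 exactly 8. Members with any count numbered 35, 41 and 41 in FaDu 1 to 3 and 38, 32 and 35 in shNSUN2 1 to 3, so the groups overlapped.

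After the filter on low counts, 23 members were tested: 5 alpha, 5 beta and 13 gamma genes. PCDHGB7, PCDHA10 and PCDHGA11 were lower in the shNSUN2 libraries at an edgeR adjusted p under 0.05, which is 13.0% of those tested against 9.97% of all 19081 genes. With edgeR 0 members were higher at that threshold, against 8.54% of all genes, and DESeq2 also called 0 higher and 3 lower. At an unadjusted p under 0.05 there were 4 members in edgeR, the 3 above and PCDHA4, which was higher. The share of members called lower lay near that of all genes, and the filter kept PCDHA10 and PCDHGA11 through the FaDu libraries, where they were higher. CPM of the 2 groups did not overlap, with shNSUN2 lower, for 6 tested members (22.1% of all genes) and, with shNSUN2 higher, for PCDHA4 alone (20.3% of all genes). The 6 were PCDHGB7, PCDHA10, PCDHGA11, PCDHA3, PCDHGA1 and PCDHGA9. All but PCDHGB7 passed the filter only through the FaDu libraries, where they were higher, so their number is no independent result. The log2 fold change was below 0 for 17 of the 23 and above 0 for 6, with a median of -0.0069 over all tested genes. These signs are not independent, since alpha and gamma genes share exons and several members passed the filter only through FaDu. Over all genes 1629 were higher and 1903 lower, a split that moved to 3396 and 1918 with GC and length correction and to 1258 and 2213 with upper-quartile scaling.

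**Figure D2:**
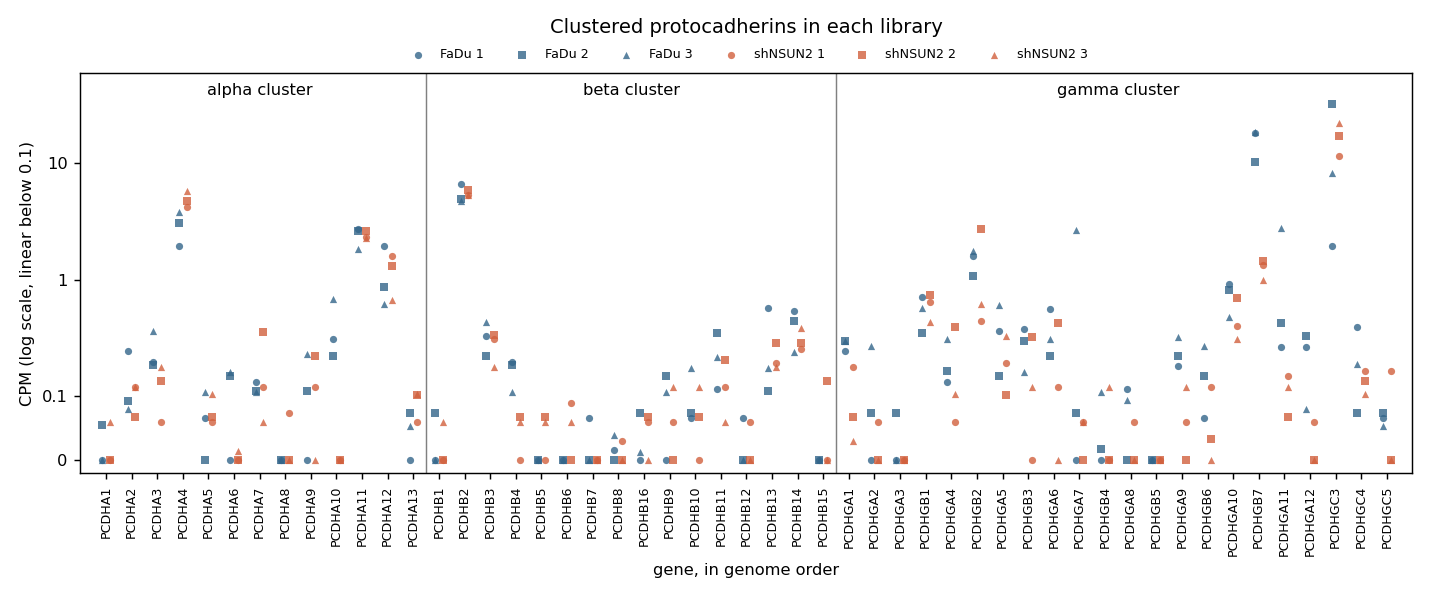
CPM of each member in each library, in genome order, on a scale that is logarithmic above 0.1 and linear below. Blue points are the 3 FaDu and orange points the 3 shNSUN2 libraries, and the PCDHGB7 points of the groups lie apart while those of PCDHGC3 overlap.

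PCDHGB7, a B-type gamma gene whose promoter methylation has been studied in cancers, was the abundant member that was lower. Its CPM was 18.2, 10.4 and 18.7 in FaDu 1 to 3 (1116, 565 and 1397 counts) and 1.33, 1.43 and 0.992 in shNSUN2 1 to 3 (90, 85 and 67 counts). Every shNSUN2 library lay below every FaDu library, with means of 15.8 ± 4.68 and 1.25 ± 0.230 CPM (SD, n = 3 each). This is a log2 fold change of -3.65 with an SE of 0.29 (edgeR adjusted p = 0.000515). PCDHGB7 passed the threshold in every alternative run, including each fit without 1 library, where the log2 fold change ran from -3.88 to -3.51.

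PCDHGC3 is a C-type gamma gene, the kind that many cell types express without the choice made among the other members, and its protein is known to bind the Wnt pathway scaffold Axin1. Its CPM was 1.95, 32.4 and 8.20 in FaDu 1 to 3 (119, 1764 and 614 counts) and 11.6, 17.1 and 22.2 in shNSUN2 1 to 3 (784, 1018 and 1499 counts). The FaDu libraries spread on both sides of all shNSUN2 libraries, so the groups overlapped. With a log2 fold change of 0.26 and an SE of 0.92 it was not called (edgeR adjusted p = 0.873). Leaving out FaDu 1 gave the lowest value, -0.25, and leaving out FaDu 2 the highest, 1.74.

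The make-up of the gamma cluster differed among the FaDu libraries more than among the shNSUN2 libraries. PCDHGB7 held 69.1%, 21.8% and 48.9% of all gamma counts in FaDu 1, 2 and 3, and PCDHGC3 held 7.36%, 68.0% and 21.5%. In the shNSUN2 libraries PCDHGB7 held 8.40%, 5.90% and 3.87%, and PCDHGC3 held 73.2%, 70.6% and 86.5%. FaDu 2 therefore had PCDHGC3 as its leading gamma gene, as all 3 shNSUN2 libraries did, while FaDu 1 and 3 had PCDHGB7. The sum of both genes was 20.2, 42.7 and 26.9 CPM in FaDu and 12.9, 18.6 and 23.2 CPM in shNSUN2 libraries, and these ranges overlapped. Whether the deposited counts moved fragments of the shared exons between these genes was not tested.

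**Figure D3:**
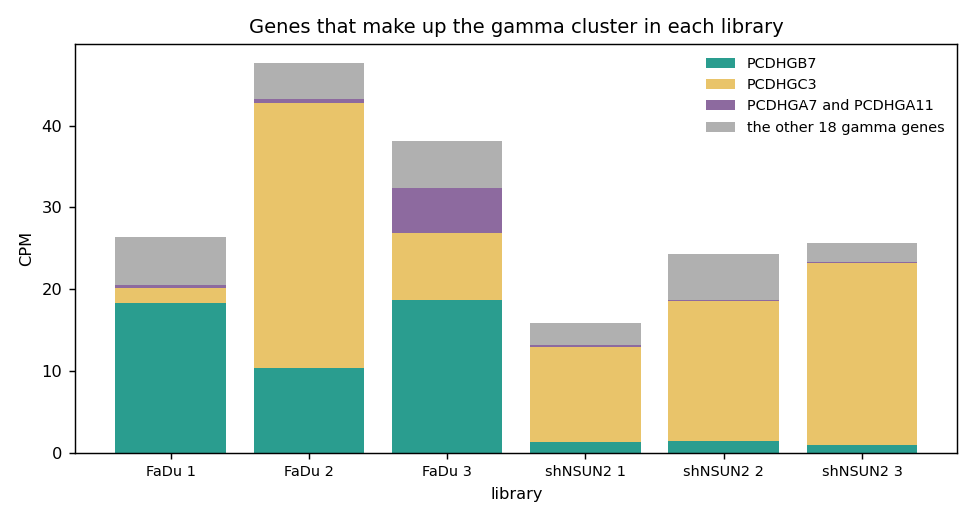
Stacked CPM of the gamma cluster in each library, divided into PCDHGB7, PCDHGC3, the pair PCDHGA7 and PCDHGA11, and the other 18 gamma genes. PCDHGB7 is at most 1.43 CPM in the shNSUN2 libraries, PCDHGC3 ranges from 1.95 to 32.4 CPM within FaDu, and the pair is large in FaDu 3 alone.

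Among the remaining gamma genes, single libraries weighed heavily on the values of PCDHGA11, PCDHGA7 and PCDHGB2. PCDHGA11, an A-type gene, had 0.262, 0.422 and 2.77 CPM in FaDu and 0.148, 0.067 and 0.118 CPM in shNSUN2 libraries (16, 23 and 207 against 10, 4 and 8 counts). The groups did not overlap, but FaDu 3 alone was above 1 CPM, with a log2 fold change of -3.35 (SE 0.96, edgeR adjusted p = 0.0468) and of -1.60 (adjusted p = 0.280) without FaDu 3. It was also not called without FaDu 2 (adjusted p = 0.0586) or without any 1 of the shNSUN2 libraries (0.109, 0.125 and 0.136 without replicates 1, 2 and 3), and the fit with the replicate number as a block gave -2.70 (adjusted p = 0.0786). PCDHGA7, an A-type gene that the filter removed and that was singled out after its values were seen, had 0, 4 and 200 counts in FaDu and 4, 0 and 4 in shNSUN2 libraries, again with FaDu 3 alone. PCDHGB2, a B-type gene, had 1.60, 1.08 and 1.75 CPM in FaDu and 0.443, 2.73 and 0.622 CPM in shNSUN2 libraries. Its shNSUN2 replicate 2 lay above all other libraries. Its log2 fold change of -0.23 had an SE of 0.65 (edgeR adjusted p = 0.837), and without that library it was -1.47 (adjusted p = 0.0418). No other tested gamma gene was called, and PCDHGA1 and PCDHGA9 were lower in every shNSUN2 library with edgeR adjusted p of 0.199 and 0.210. The 9 untested gamma genes had mean levels of at most 0.915 CPM.

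In the alpha cluster, the groups of PCDHA10 and of PCDHA4 lay apart in opposite directions, at low levels. PCDHA10 had 0.311, 0.220 and 0.681 CPM in FaDu (19, 12 and 51 counts) and 0 in all 3 shNSUN2 libraries. Taking 12 counts per library as the floor, which is 3 fragments of 4 counts, the shNSUN2 level was at least 2.18-fold below the FaDu mean (edgeR adjusted p = 0.0150, and 0.0848 without FaDu 3). FaDu 2, with 12 counts, was itself at that floor in counts, so the fold holds for the mean and not for each library. PCDHA4 had 1.96, 3.06 and 3.83 CPM in FaDu and 4.18, 4.76 and 5.76 CPM in shNSUN2 libraries, with means of 2.95 ± 0.941 and 4.90 ± 0.799 CPM (SD, n = 3 each). The groups did not overlap, but the log2 fold change of 0.73 (SE 0.28) missed the threshold with an edgeR adjusted p of 0.105. With the replicate block and GC and length correction together it was 1.02 (adjusted p = 0.0240).

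The other alpha genes that reached 1 CPM had groups within each other's spread. PCDHA11 had 2.70, 2.61 and 1.82 CPM in FaDu and 2.31, 2.61 and 2.28 CPM in shNSUN2 libraries, and PCDHA12 had 1.96, 0.862 and 0.615 against 1.58, 1.31 and 0.667 CPM. Both overlapped between groups, with log2 fold changes of 0.02 (SE 0.24, edgeR adjusted p = 0.969) and 0.05 (SE 0.50, adjusted p = 0.955). PCDHA3, the fifth tested alpha gene, was lower in every shNSUN2 library with an edgeR adjusted p of 0.373. The C-type alpha genes PCDHAC1 and PCDHAC2 fall outside the symbol rule, and their log2 fold changes were 0.42 and 0.04 (edgeR adjusted p = 0.778 and 0.982).

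PCDHB2, which like the other beta genes ends in its own sequence, was the 1 beta gene above 1 CPM. It had 6.62, 4.97 and 4.73 CPM in FaDu and 5.38, 5.88 and 5.36 CPM in shNSUN2 libraries, with means of 5.44 ± 1.03 and 5.54 ± 0.291 CPM (SD, n = 3 each). The groups overlapped, with a log2 fold change of 0.03 and an SE of 0.19 (edgeR adjusted p = 0.941). Of its 50-base words, 20.3% recurred in another member. PCDHB3, PCDHB11, PCDHB13 and PCDHB14 were tested and overlapped between groups, and the 11 untested beta genes had mean levels of at most 0.162 CPM.

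Because levels of different genes compare only per length, CPM per kilobase of exons was also taken. In FaDu the mean level was 3.17 for PCDHGB7, 2.61 for PCDHGC3, 1.32 for PCDHB2, 0.378 for PCDHA11, 0.310 for PCDHGB2, 0.220 for PCDHA4 and 0.210 for PCDHA12. In the shNSUN2 libraries PCDHGC3 led with 3.13, followed by PCDHB2 with 1.34, PCDHA11 with 0.382, PCDHA4 with 0.365, PCDHGB2 with 0.265, PCDHGB7 with 0.252 and PCDHA12 with 0.218. Among the named genes PCDHGB7 stood first in the FaDu mean, though behind PCDHGC3 in FaDu 2, and below PCDHA4 in every shNSUN2 library. Of the neighbours in the FaDu order, PCDHB2 and PCDHA11 did not overlap and all others did. In the shNSUN2 order PCDHGC3 lay above PCDHB2 and PCDHB2 above PCDHA11 without overlap, and the later neighbours overlapped.

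Summed over a cluster, the gamma cluster was lower and the alpha cluster slightly higher in the shNSUN2 libraries. A sum is free of how shared fragments were divided among its genes only if each fragment was counted once, which is not known. The alpha sum also leaves out the C-type alpha genes, which use the same shared exons. The gamma sum was 26.4, 47.6 and 38.2 CPM in FaDu and 15.8, 24.3 and 25.7 CPM in shNSUN2 libraries, with means of 37.4 ± 10.6 and 21.9 ± 5.32 CPM and a log2 ratio of -0.77. The groups did not overlap, though the highest shNSUN2 library came close to the lowest FaDu library. The alpha sum was 7.57, 7.52 and 8.04 against 8.68, 9.63 and 9.35 CPM, a log2 ratio of 0.26 with no overlap, and with the C-type alpha genes added the groups overlapped. Its means were 7.71 and 9.22 CPM, and PCDHA4 alone, which was not called, rose by more, from 2.95 to 4.90 CPM. The higher alpha sum therefore rests on PCDHA4, and the other alpha genes together were not higher. The beta sum was 8.58, 6.64 and 6.23 against 6.55, 7.39 and 6.64 CPM, a log2 ratio of -0.060 with overlap. No test was run on the sums.

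Among the gamma types, the B-type genes differed by the most CPM between group means, and nearly all of this was PCDHGB7. That gene alone had means of 15.8 and 1.25 CPM, and no other tested B-type gene was called. The B-type sum was 18.3 ± 5.20 CPM in FaDu and 3.35 ± 1.65 CPM in shNSUN2 libraries (SD, n = 3 each), a log2 ratio of -2.44 without overlap. The A-type sum was also lower in every shNSUN2 library, with 3.02, 2.83 and 8.19 CPM in FaDu 1 to 3 against 1.39, 1.73 and 1.07 in shNSUN2 1 to 3. Its means were 4.68 ± 3.04 and 1.40 ± 0.334 CPM, and without FaDu 3 the FaDu mean was 2.93 CPM. The C-type sum, nearly all PCDHGC3, was 14.5 ± 15.9 and 17.2 ± 5.20 CPM, with a FaDu mean of 5.42 CPM without FaDu 2. Without PCDHGB7 the gamma sum was 21.6 ± 14.6 and 20.7 ± 5.42 CPM, a log2 ratio of -0.066 with overlapping groups, and this ratio rests on PCDHGC3 in FaDu 2. Leaving out FaDu 2 gave a FaDu mean of 13.8 CPM and a log2 ratio of 0.58. Without both PCDHGB7 and PCDHGC3 the other 20 gamma genes summed to 7.46 ± 3.39 CPM in FaDu and 3.69 ± 1.75 CPM in shNSUN2 libraries, a log2 ratio of -1.02 with overlapping groups. Leaving out FaDu 3 there gave -0.59. Both alternatives were chosen after the values were seen.

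**Figure D4:**
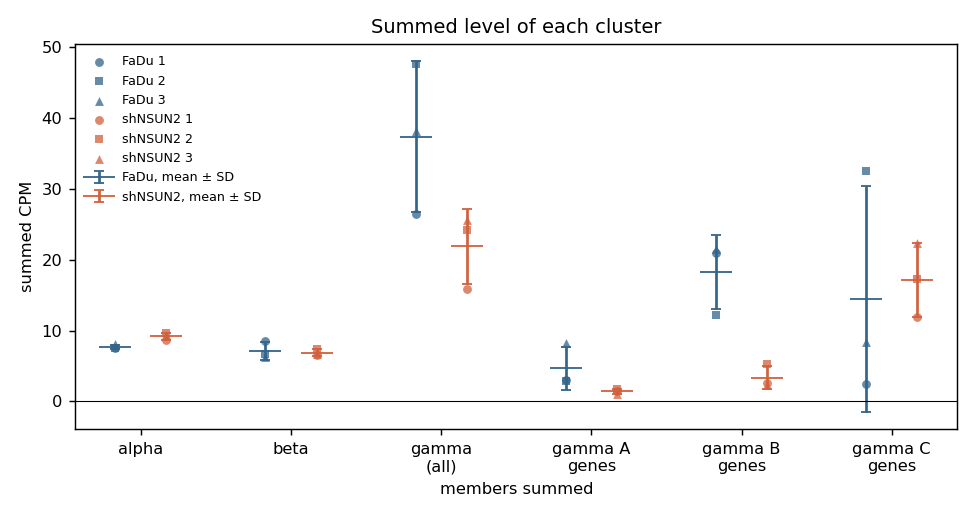
Summed CPM of the alpha, beta and gamma clusters and of the A-, B- and C-type gamma genes, with points for the libraries and bars for mean ± SD (n = 3 each). The gamma, A-type and B-type sums lie lower in shNSUN2 libraries without overlap, and the C-type sum spreads from 2.40 to 32.5 CPM within FaDu.

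Of the 17 other protein-coding genes within 200 kb of the clusters, 14 were tested. At an edgeR adjusted p under 0.05, 4 were higher and 0 lower, while the other 10 were not called. Over all genes 8.54% were higher and 9.97% lower, so 0 lower among 14 lies near that share. The 4 higher genes were NDUFA2, WDR55, HARS1 and DIAPH1, with log2 fold changes of 0.51, 0.58, 0.67 and 0.55. TAF7, a general transcription factor gene between the beta and gamma clusters, had -0.16 (edgeR adjusted p = 0.366). The 28 noncoding genes inside the clusters were at 0 in all libraries for 15 of them, and the largest single count was 27. Of these, 13 lie on the minus strand with at most 8 counts in a library. The 4 listed vault RNA genes were too low to test.

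The lists that follow stand against 8.54% of all genes called higher and 9.97% called lower. Of 27 genes for cohesin, CTCF and chromatin regulators of the clusters, 4 were higher and the other 23 not called, with a median log2 fold change of 0.30 against -0.01 over all genes. They were CTCF (0.50, edgeR adjusted p = 0.0199), DNMT1, which maintains DNA methylation (0.59, adjusted p = 0.0200), TRIM28, a corepressor of zinc finger proteins (0.83, adjusted p = 0.0138), and EHMT2, a histone H3 lysine methyltransferase (0.59, adjusted p = 0.0344). Of 20 genes for proteolytic processing and binding partners, 2 were lower and the other 18 not called, with a median of -0.03. FYN, a Src-family kinase that binds alpha protocadherins, had a log2 fold change of -1.96 (edgeR adjusted p = 0.00166), and APH1B, a subunit of gamma-secretase, had -1.22 (adjusted p = 0.0376).

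The relatives of the clustered genes elsewhere in the genome included several that were lower. Of 25 non-clustered protocadherins and related large cadherins, 16 were tested, 7 were lower and 1 was higher, with a median log2 fold change of -0.81. Over all genes 9.97% were lower and 8.54% higher. The 6 relatives with the smallest adjusted p were FAT2 (-1.71, 0.000515), PCDH7 (-1.18, 0.00250), CELSR1 (-0.66, 0.00492), CELSR3 (-0.80, 0.0178), CELSR2 (-0.56, 0.0221) and PCDH10 (1.42, 0.0343), each given as its log2 fold change and edgeR adjusted p. FAT2 is a giant cadherin of epithelial cells, and the CELSR genes encode planar polarity cadherins. FAT2 had a mean of 409 ± 24.2 CPM in FaDu and 125 ± 16.5 CPM in shNSUN2 libraries (SD, n = 3 each), far above every clustered member.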

How the data were processed

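The authors deposited estimated counts per Ensembl gene in 1 table of 6 libraries. Per the submitters' processing notes, HISAT2 2.0, StringTie 1.3.0 and Bowtie 0.12.2 were used with build mm8, a mouse build that does not match the human identifiers. No source used here gives the human build, the annotation, strandedness or the treatment of reads that fit several genes. Values were whole and used as they stand, and 58472 of 58825 identifiers matched a symbol.

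The 51 members, the gene lists and the tests were chosen with earlier results of these data known. Genes were filtered with filterByExpr (minimum count 10, minimum total 15), scaled by TMM and tested by edgeR 4.0.16 quasi-likelihood (R 4.3.3) over all 6 libraries with group alone, two-sided, with Benjamini-Hochberg adjustment over 19081 genes at 0.05. Members called or reaching a mean of 1 CPM in either group are named with every value, other list genes only where called, at most 6 per list by adjusted p. Exon lengths and shared bases came from GENCODE 29. Alternatives were DESeq2 1.42.0, upper-quartile scaling, no filter, a stricter filter (40 counts in 3 libraries), the replicate number as a block, GC and length correction (mgcv 1.9.3), both together, and leaving out each library.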

Additional observations from a re-analysis of the deposited data

How the results depend on the processing

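PCDHGB7 stayed lower and past the threshold under every alternative run, and NSUN2 likewise, from -2.15 to -1.88 on the log2 scale without 1 library. The members called lower numbered 3, and 1 with the stricter filter, which left 9 members to test and removed PCDHA10 and PCDHGA11. Without 1 library they numbered 1 to 3 (1 without FaDu 3). Without shNSUN2 replicate 2 the 3 were PCDHA10, PCDHGB2 and PCDHGB7. The members called higher numbered 0, and 1 (PCDHA4) with the replicate block and GC and length correction together. Genes called higher over the whole table numbered 1629, 969 with the replicate block, 3396 with GC and length correction, and 478 to 2090 without 1 library, and those called lower 1903, and 861 to 2181 without 1 library. The design text speaks of paired experiments and does not say what a pair shares. Across all genes, same-numbered libraries did not deviate together (r = -0.036, 0.024 and 0.007), and the fit without the replicate block was kept. A correlation over all genes cannot show that pairing is absent for a single gene. Whether a call lost under the block reflects a weaker effect was not tested. PCDHGA11 also missed the threshold with no filter (edgeR adjusted p = 0.0609), with the replicate block (0.0786) and with the replicate block and GC and length correction (0.0811). Log2 fold changes near 0 changed sign: with upper-quartile scaling PCDHA11 gave -0.060, PCDHA12 -0.024 and PCDHB2 -0.052, with no filter PCDHA11 gave -0.013 and PCDHB2 -0.0048, and with the stricter filter PCDHA11 gave -0.0024. Without 1 library the ranges were -0.15 to 0.12 for PCDHA11, -0.26 to 0.69 for PCDHA12, -0.067 to 0.19 for PCDHB2, -1.47 to 0.18 for PCDHGB2 and -0.25 to 1.74 for PCDHGC3. The log2 ratio of the gamma sum was -0.97 to -0.56 without 1 library, -0.066 without PCDHGB7 (0.58 when FaDu 2 was left out too) and -1.02 without PCDHGB7 and PCDHGC3. The causes were not tested. Of the 51 members 43 lie under a mean of 1 CPM in both groups and 28 were too low to test, so for those 28 no difference could be shown at this depth.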
